A study of Mus musculus with 2 samples.

Results

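The fibroblast growth factor (FGF) pathway was followed here through 42 genes, read by 75 of the 41174 probes of a mouse genome array. They were chosen by gene name, with earlier results of these data known. They comprised 17 secreted FGF ligands, 4 intracellular FGF homologous factors, 5 receptors, the co-receptor Kl, the FGF carrier Fgfbp1, the docking adaptors Frs2 and Frs3, and 10 genes of the feedback circuit (Sprouty and Spred genes, Dusp6, Etv4 and Etv5). The remaining 2 genes, Fgfr1op and Fgfr1op2, matched the naming rule only because they were named as fusion partners of a receptor, and are not known as FGF signalling components. The array named 19505 genes in all.

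The data were 2 arrays of thymic stromal cells from C57BL/6 fetuses, 1 for embryonic day E14.5 and 1 for E15.5. Thymic lobes had been kept in organ culture with 1.35 mM deoxyguanosine, which depletes haematopoietic cells, for 8 days (E14.5) or 9 days (E15.5), and were then dispersed with trypsin. The cells were grown for another 72 h either as a flat 2D culture on a plastic dish or as a reaggregation thymus organ culture (RTOC), in which a drop of cells forms a three-dimensional tissue on a membrane. On each array the RNA of the 2D culture was labelled with Cy3 and that of the RTOC of the same stage with Cy5. Every cell population had been through deoxyguanosine and dispersal, so there was no group of untouched thymus. The dyes were not swapped, and a probe's dye preference and the effect of the culture cannot be told apart. Each stage had its own array and its own length of organ culture, and these cannot be told apart either. The E14.5 and E15.5 arrays were used as the 2 replicates of the comparison of RTOC with 2D culture. The limma p-values rest on these 2 arrays alone, with a spread taken mostly from all probes. The labels do not say how many lobes or litters were combined for each RNA.

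FGFs of the secreted kind bind receptor tyrosine kinases on the cell surface together with heparan sulfate, and the receptor passes the signal through the adaptor Frs2 to the Ras-ERK cascade. The cascade switches on its own brakes, among them Sprouty and Spred proteins and the phosphatase Dusp6, together with the ETS transcription factors Etv4 and Etv5, so that these genes are widely read as targets of FGF signals. In the fetal thymus, Fgf7 and Fgf10 are known as products of the mesenchyme, and the epithelial form of Fgfr2 as their receptor on thymic epithelial cells.

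Fgf10 and its receptor gene Fgfr2 were higher in RTOC than in 2D culture, together with the intracellular factors Fgf11 and Fgf14. Fgf5, Fgfbp1, Fgfr1, Fgfr4, Spred3 and Etv4 were lower. The comparison used log2 of RTOC over 2D culture, and a probe was tested where its signal was well above background in at least 1 culture on each array. This left 30 of the 42 genes, of which 25 were well above background in all 4 channels. Each gene was read by its brightest tested probe. With limma and a Benjamini-Hochberg adjusted p under 0.05, 4 genes were higher in RTOC, 13.3% of those tested, against 15.4% of all 13506 genes tested. Lower were 6 genes, 20.0% of those tested, against 12.7% of all genes, so that neither share of the FGF genes is read as particular to them. Fgf5, Fgf14 and Spred3 entered the test through a single culture, so that the filter itself favoured a difference. Fgf10 entered through RTOC alone on the E15.5 array, so that the filter favoured a positive ratio there, as it did for Fgf12 on the E14.5 array. Among probes well above background in every channel, 2 genes were higher and 5 lower. No gene was called with all dim probes included in the fit or by the methods' t-test.

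The median log2 ratio of the 30 FGF genes was -0.47, and that of all tested genes was 0.0025. Of the 30, 17 were lower in RTOC on both arrays, 6 were higher on both and 7 went opposite ways. Opposite signs were thus found for 23.3% of the FGF genes and 20.3% of all tested genes. Lower on both arrays were 39.5% of all tested genes, and neither count of the FGF genes is read as particular to them. Etv4, at an adjusted p of 0.0488, lay just inside the threshold by limma, and Fgf12, at 0.0501, and Dusp6, at 0.0575, just outside. The plot of all 30 genes gives both ratios.

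**Figure D1:**
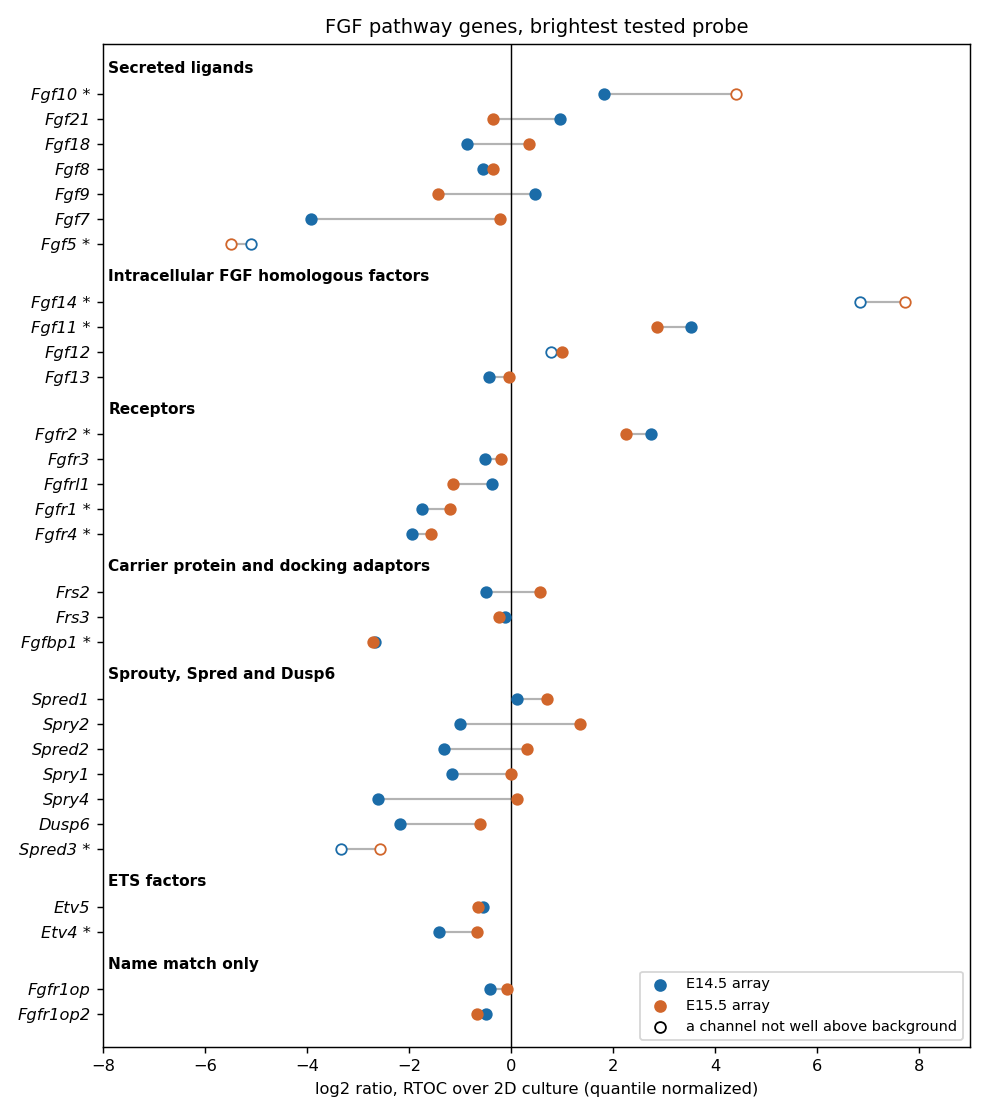
Log2 ratio of RTOC over 2D culture (horizontal axis) for the 30 tested genes of the FGF pathway, grouped by role, with 1 point for the E14.5 array and 1 for the E15.5 array. Asterisks mark a limma adjusted p under 0.05, and open points mark a ratio with a culture that was not well above background on that array; Fgf10, Fgf11, Fgf14 and Fgfr2 lie to the right and Fgf5, Fgfbp1 and Spred3 to the left on both arrays, while the points of Fgf7, Spry4 and Spry2 lie far apart.

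Markers of the cell types in the cultures moved as well, and in bulk RNA fewer cells of a type and less RNA per cell cannot be told apart. Of 12 markers of thymic epithelium, all were tested. The 6 higher in RTOC were Krt5, Foxn1, Psmb11, Ccl25, Trp63 and Enpep, and the 3 lower were Cdh1, Krt14 and Cldn4. Epcam, Krt8 and Krt18 did not pass. The log2 of the summed signals of a list, called the sum below, is set mostly by its brightest genes. For epithelium the sum was 18.3 to 19.3 in 2D culture and 19.9 in RTOC. Of 10 mesenchymal markers, 3 were higher and 4 lower, and the sum was 18.3 to 18.7 in 2D culture and 18.1 to 18.2 in RTOC. Of 6 tested smooth muscle and pericyte markers, 4 fell and 1 rose, with a sum of 18.9 to 19.1 in 2D culture and of 15.4 to 16.0 in RTOC. The pericyte marker Rgs5 rose (3.25, limma adjusted p = 0.0032), whereas Cspg4 of the same list fell (-2.67, limma adjusted p = 0.0046). Endothelial markers rose for 7 of 8, with a sum of 10.8 in 2D culture and of 12.7 to 13.1 in RTOC. However, Pecam1, Cdh5, Tek, Tie1 and Erg were not well above background in the 2D cultures. These 5 entered the test through RTOC alone, so that the filter favoured a rise. Of 9 tested haematopoietic markers 5 rose, with a sum of 13.5 to 13.7 in 2D culture and of 15.8 in RTOC, while Rag2 and Cd8a stayed below background in both cultures. Of all tested genes, 15.4% were higher and 12.7% lower. The part of these marker shifts in the FGF results was not tested.

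Of the Fgf7 subfamily, the mesenchymal signals to epithelium, Fgf10 rose in RTOC and Fgf7 was high in 2D culture at E14.5 alone. Fgf10 was read by 10 identical spots and Fgf7 by a single spot. Both are shown through the first 30 bases of their 60-base probes, as the array file lists them, because they are the ligands best known in the thymus.

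Fgf10 probe: acagcaaatagtgcagacgttggattctta
Fgf7 probe: aaaccattataacacctatgcatcagctaa

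Fgf10 had a normalized signal of 221 in 2D culture and 780 in RTOC at E14.5, and of 45.2 and 963 at E15.5. The 2 RTOC signals lay close together above both 2D signals. The low signal of the E15.5 2D culture was well above background at 0 of the 10 spots, so Fgf10 entered the test through RTOC alone on that array. The log2 ratio was 1.82 at E14.5 and 4.41 at E15.5, with a mean of 3.12 ± 1.83 (SD over n = 2 arrays, SE 0.61, limma adjusted p = 0.018). Over the repeat spots, which carry technical error only, the log2 ratio ran from 1.57 to 2.07 at E14.5 (SD 0.12) and from 3.33 to 5.59 at E15.5 (SD 0.67). With normexp background correction and loess, which adds an offset to dim signals, the mean log2 ratio was 1.17 and still past the threshold (limma adjusted p = 0.034).

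Fgf7, the keratinocyte growth factor, had a normalized signal of 4507 in 2D culture and 296 in RTOC at E14.5, and of 181 and 156 at E15.5. Only the E14.5 2D culture was high, and the other 3 signals lay within a narrow range, all well above background. The log2 ratio was therefore -3.93 at E14.5 and -0.22 at E15.5, and the mean of -2.07 ± 2.62 (SD over n = 2 arrays, SE 0.83) did not pass the test (limma adjusted p = 0.116). The log2 ratio at E14.5 minus that at E15.5 was -3.71, and a gap of this size in either direction was found in 22 of the 13506 tested genes, or 0.163%. The Fgf10 gap has no exact size, since no spot of its E15.5 2D culture passed the background threshold. Fgf7 was higher in 2D culture at E14.5 than at E15.5 by 4.64 on the log2 scale. Of the 10 mesenchymal markers, 8 were also higher in 2D culture at E14.5, against 48.7% of all tested genes. Their differences ran from -1.03 to 2.19, with a median of 0.84 on the log2 scale. The widest gaps were those of Pdgfra, with a log2 signal of 9.61 at E14.5 and 7.41 at E15.5, and Prrx1, with 12.17 and 10.01. Thy1, with 11.55 and 12.58, and Col3a1, with 14.85 and 14.93, went the other way. The part of these markers in the difference was not tested. With 1 array a stage, the difference between stages has no test. The other genes of the subfamily, Fgf3 and Fgf22, were below background in both cultures.

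**Figure D2:**
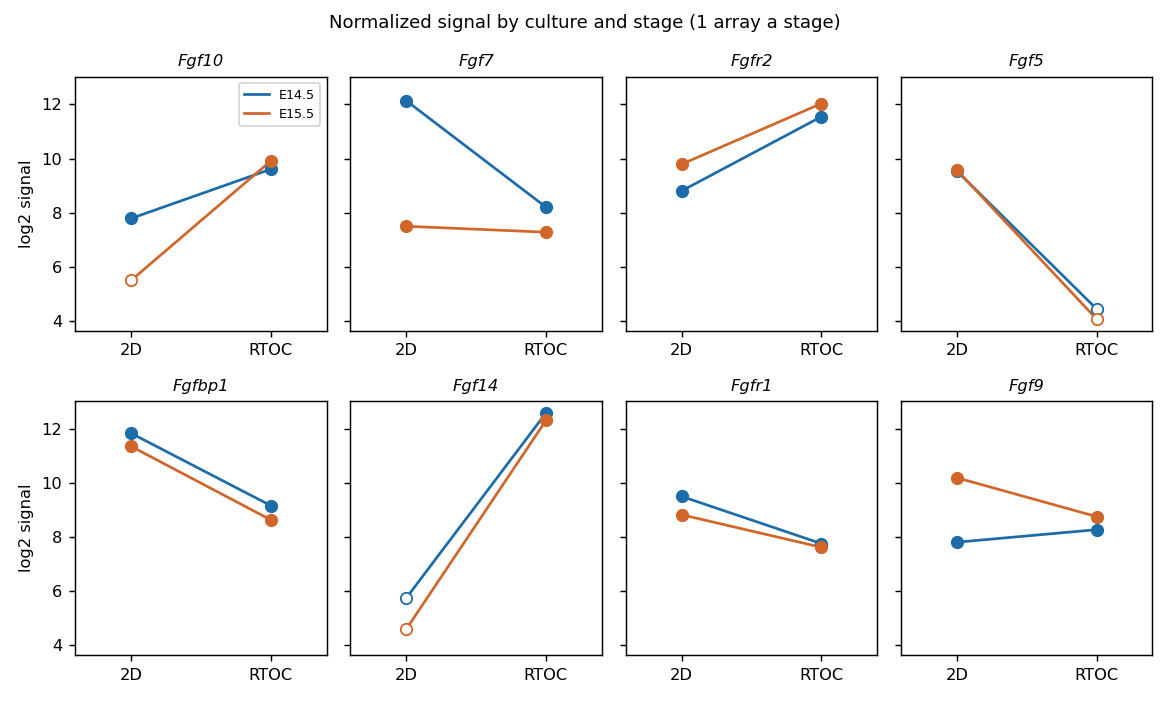
Log2 normalized signal (vertical axis) in 2D culture and in RTOC for 8 FGF pathway genes, with 1 line a stage and 1 array behind each line; open points are not well above background. The 2 lines run in the same direction for Fgfr2, Fgf5, Fgfbp1, Fgf14 and Fgfr1, whereas those of Fgf7, Fgf10 and Fgf9 differ most in 2D culture.

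Fgf5, a ligand of the Fgf4 subfamily known for ending the growth phase of hair, fell in RTOC. Its normalized signal was 747 at E14.5 and 763 at E15.5 in 2D culture, and in RTOC it was not well above background on either array (21.8 and 16.8). Against the lowest signal that is well above background, it was at least 2.43-fold lower in RTOC. The limma adjusted p of 0.0016 belongs to its quantile normalized ratio and not to this bound, and Fgf5 entered the test through 2D culture alone. Such bounds were taken per channel after normexp, loess and between-array scaling, and with no dye swap they are open to dye bias. Its single probe, over its first 30 bases, is given next with that of the carrier Fgfbp1.

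Fgf5 probe: atggagatctatgaagtataagtgttcacc
Fgfbp1 probe: ggagccaaacaggatcaaagaagacatcac

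Fgfbp1, which releases FGFs from heparan sulfate in the matrix, behaved most evenly of the called genes. Its signal was 3665 in 2D culture and 574 in RTOC at E14.5, and 2621 and 399 at E15.5, with no overlap of the cultures. The log2 ratio was -2.67 and -2.72, with a mean of -2.70 ± 0.03 (SD over n = 2 arrays, SE 0.25, limma adjusted p = 0.0025), that is 6.48-fold lower in RTOC.

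The other 4 tested ligands did not pass the test. Fgf9, a ligand that signals from epithelium to mesenchyme in several organs, had signals of 225 and 310 in 2D culture and RTOC at E14.5 and of 1170 and 433 at E15.5, so that its ratio changed sign (0.46 and -1.44, limma adjusted p = 0.476). Here the E15.5 2D culture was the high one, the reverse of Fgf7. Fgf21, an endocrine FGF, had signals of 865 and 1667 at E14.5 and 5031 and 3919 at E15.5, with both E15.5 cultures above both E14.5 cultures. A second Fgf21 probe gave the same order, with 153 and 251 at E14.5 and 1047 and 638 at E15.5. Fgf18 lay between 828 and 1910 and Fgf8, over its 10 spots, between 106 and 189 in the 4 cultures. For Fgf8 the ratios of -0.56 and -0.37 were lower in RTOC on both arrays without passing (limma adjusted p = 0.217).

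The remaining 10 secreted ligands were not tested. Fgf3, Fgf6, Fgf15, Fgf16, Fgf17, Fgf20, Fgf22 and Fgf23 were below background in every channel. Fgf1 and Fgf2, the ligands without a classical signal peptide, were detected in 2D culture on 1 array each and in RTOC on neither. Fgf1 was well above background in the E15.5 2D culture, at a signal of 183, and Fgf2 in that of E14.5, at 121, where 9 of its 10 spots passed. On the other array neither culture was well above background for either gene, so no fold is given. The second probe of Fgf2 had 134 in the E14.5 2D culture and between 12.2 and 13.2 in the other 3.

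Among the receptors, Fgfr2 rose and Fgfr1 and Fgfr4 fell. Fgfr2 has 3 probes, and the 2 that were tested are shown because unrelated stretches of its transcript gave the same direction.

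Fgfr2 brightest probe: gaggactagttaatctattgcttggactta
Fgfr2 probe with 10 spots: ctgcctcagtatccacacataaacggcagt

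The brightest Fgfr2 probe gave signals of 448 in 2D culture and 2994 in RTOC at E14.5, and of 887 and 4193 at E15.5. The cultures did not overlap, and the log2 ratios of 2.74 and 2.24 had a mean of 2.49 ± 0.35 (SD over n = 2 arrays, SE 0.27, limma adjusted p = 0.0036), or 5.62-fold. The probe with 10 spots gave 147 and 503 at E14.5 and 226 and 539 at E15.5, with a mean log2 ratio of 1.51 ± 0.37 (SD over n = 2 arrays, limma adjusted p = 0.014). With normexp and loess it was 0.64 and did not pass (limma adjusted p = 0.0503), whereas the brightest probe was at 1.98 and passed (limma adjusted p = 0.013). All of its spots were positive, from 1.68 to 1.86 at E14.5 and from 1.04 to 1.54 at E15.5. The remaining probe was well above background in the E15.5 RTOC alone, and no fold is given for it. The labels do not say which Fgfr2 splice form a probe reads, and the epithelial and mesenchymal forms were not told apart.

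Fgfr1, the receptor form typical of mesenchyme, went the other way. Its brightest probe had signals of 727 and 217 at E14.5 and of 454 and 197 at E15.5, a mean log2 ratio of -1.47 ± 0.38 (SD over n = 2 arrays, SE 0.27, limma adjusted p = 0.016). A 10-spot probe that shares a run of 35 bases with it gave -1.24 and -0.85, with a mean of -1.04 (limma adjusted p = 0.037). Another probe, with no such run, gave -2.75 and -0.65 and did not pass (limma adjusted p = 0.058). That probe was not well above background in RTOC at E14.5 or in 2D culture at E15.5, so the size of both ratios is uncertain. With normexp and loess the brightest probe was at -0.58 and did not pass either (limma adjusted p = 0.068).

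Fgfr4 depended on the probe. The 2 tested probes are printed because they disagree.

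Fgfr4 brightest probe: cagctggtggaagctctggacaaggtcctg
Fgfr4 other probe: gaagctgaccagctctgttccttgcagtac

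The brightest Fgfr4 probe read 509 and 131 at E14.5 and 482 and 163 at E15.5, a mean log2 ratio of -1.76 ± 0.28 (SD over n = 2 arrays, SE 0.26, limma adjusted p = 0.0082). The other probe read 280 and 242, then 287 and 266, a mean of -0.16 (limma adjusted p = 0.655), so the fall of Fgfr4 rests on 1 of 2 tested probes. The remaining Fgfr4 probe was well above background in the E15.5 RTOC alone and was not tested. It read 70.2 and 52.7, then 90.4 and 110, with no fall on the E15.5 array. Fgfr3 did not pass, with means of -0.36 and -0.41 by 2 probes that share 32 bases and a limma adjusted p of 0.338 and 0.277. Fgfrl1, a receptor with no kinase domain, had ratios of -0.38 and -1.15 (limma adjusted p = 0.108). The adaptors Frs2 and Frs3, which dock on active receptors, had mean log2 ratios of 0.04 and -0.19 and did not pass, and the sign of Frs2 turned to -0.01 with normexp and loess. The co-receptor Kl was below background everywhere.

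The intracellular FGF homologous factors Fgf11 to Fgf14 are not secreted and are known as partners of voltage-gated sodium channels. All of them were tested and Fgf11 and Fgf14 rose in RTOC. Tested probes of both are printed because their size of change, and for Fgf11 its direction, differed between probes of the same gene.

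Fgf14 brightest probe: gctggagatgcaccttaaagatttcatgca
Fgf14 second probe: aggaagggcaagttatgaaaggaaacagag
Fgf11 brightest probe: gtaaaataggaggtagattccgagtctagc
Fgf11 other probe: gatgggagtatccagggcaccccagaggac

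The brightest Fgf14 probe had a signal of 6145 at E14.5 and 5090 at E15.5 in RTOC, while both 2D cultures were too dim to be well above background (53.9 and 24.3). This put it at least 10.1-fold above 2D culture. The limma adjusted p of 0.0016 belongs to its quantile normalized ratio and not to this bound, and the probe entered the test through RTOC alone. The second probe, also dim in 2D culture, had 161 and 127 in RTOC and lay at least 1.16-fold above 2D culture. Its quantile normalized ratio had a limma adjusted p of 0.0046, and it too entered through RTOC alone. With normexp and loess the second probe was at 0.30 on the log2 scale and did not pass (limma adjusted p = 0.184), while the brightest passed at 3.38 (limma adjusted p = 0.011). The remaining Fgf14 probe was well above background in the E15.5 RTOC alone and was not tested. It read 25.9 in 2D culture and 37.8 in RTOC at E14.5, and 57.5 and 49.3 at E15.5, with no rise on the E15.5 array. The signals of these probes cannot be set against each other, since each probe has its own brightness.

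The probes of Fgf11 gave different ratios. The brightest probe had signals of 149 and 1720 at E14.5 and of 330 and 2378 at E15.5, a mean log2 ratio of 3.19 ± 0.48 (SD over n = 2 arrays, SE 0.29, limma adjusted p = 0.0024). The other probe was well above background in all 4 channels and read 127 and 98.8, then 145 and 128, a mean of -0.27 (limma adjusted p = 0.454). Fgf12 had a mean log2 ratio of 0.89 and, as given above, lay just outside the threshold. Fgf13 did not pass by its brightest probe (mean -0.24, limma adjusted p = 0.522), and a dimmer probe gave -0.90 (limma adjusted p = 0.047), which with normexp and loess became -0.09.

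Over all genes with several probes there were 17 pairs of tested probes in 15 genes, and 12 pairs agreed in sign. The members of 4 pairs were over 1 apart on the log2 scale, namely those of Fgf14 (4.88), Fgf11 (3.46), Fgfr4 (1.60) and Spred1 (1.15). None of these 4 pairs shared a run of more than 7 bases.

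**Figure D3:**
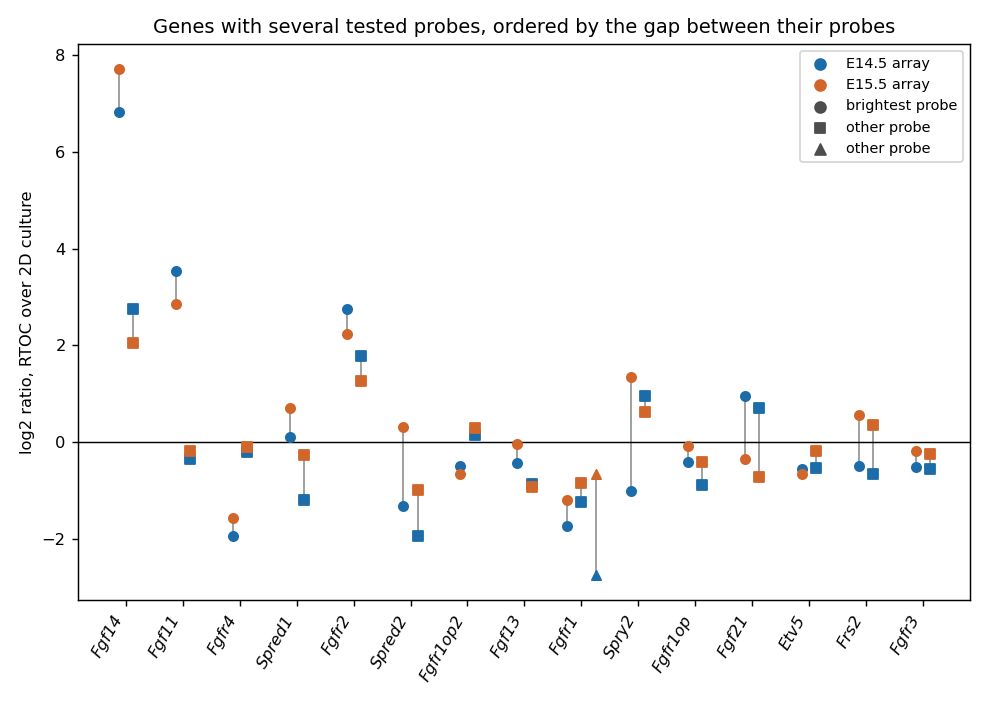
Log2 ratio of RTOC over 2D culture (vertical axis) for each tested probe of the 15 genes with several tested probes, with the E14.5 and E15.5 arrays joined by a line. Genes run from the widest gap between probes to the narrowest; the probes of Fgf14, Fgf11 and Fgfr4 stand apart, and those of Fgfr3, Frs2 and Etv5 lie together.

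Of the feedback genes, the usual read-out of FGF and ERK signals, Spred3 and Etv4 fell in RTOC and none rose. Of 10 genes 9 were tested, and the 2 called lower were 22.2% of these, against 12.7% of all tested genes. Lower on both arrays were 5, or 55.6%, against 39.5% of all tested genes, and with so few genes neither share is read as particular to them. Spred3, a Spred family inhibitor of the Ras-ERK cascade, had signals of 128 and 143 in 2D culture and was not well above background in RTOC (12.7 and 24.0). It was at least 1.26-fold lower in RTOC. The limma adjusted p of 0.0029 belongs to its quantile normalized ratio and not to this bound, and Spred3 entered the test through 2D culture alone. With normexp and loess its mean log2 ratio was -0.37 and did not pass (limma adjusted p = 0.121). Etv4 had signals of 951 and 355 at E14.5 and of 619 and 387 at E15.5, a mean log2 ratio of -1.05 ± 0.52 (SD over n = 2 arrays, SE 0.30, limma adjusted p = 0.0488). It did not pass with normexp and loess (-0.55, limma adjusted p = 0.103) or after centring on the median (-0.89, limma adjusted p = 0.068). Etv5 had ratios of -0.56 and -0.66 and did not pass (limma adjusted p = 0.122).

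Dusp6, the ERK phosphatase, had signals of 56525 in 2D culture and 12451 in RTOC at E14.5, and of 24197 and 15869 at E15.5. Both RTOC signals lay below both 2D signals, yet the ratios of -2.18 and -0.61 were unequal, and the mean of -1.40 ± 1.11 (SD over n = 2 arrays, SE 0.42) did not pass (limma adjusted p = 0.0575). It passed after centring on the median, at -1.28 (limma adjusted p = 0.039). Spry4 had 662 and 108 at E14.5 and 139 and 151 at E15.5, ratios of -2.62 and 0.12. Only its E14.5 2D culture was high, as for Fgf7. Spry1 had 7645 and 3425 at E14.5 and 7402 and 7346 at E15.5, where the E14.5 RTOC was the low one.

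Spry2 changed sign between the arrays. Its probes are printed because the brighter one alone did so.

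Spry2 brightest probe: caggaaacctttattgtaagtctctgattt
Spry2 other probe: ccccccttttaacacatatgcaaccaacta

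The brightest Spry2 probe had signals of 6575 and 3267 at E14.5 and of 1623 and 4151 at E15.5, ratios of -1.01 and 1.35. The other probe had 360 and 693 at E14.5 and 178 and 275 at E15.5, ratios of 0.95 and 0.63 (limma adjusted p = 0.073). Both probes had their lowest signal in the E15.5 2D culture, and they differed in the E14.5 2D culture, which was the highest of the 4 for the first probe only. Spred1 and Spred2 each had 2 tested probes. Spred1 had ratios of 0.11 and 0.71 by its brightest probe and of -1.21 and -0.27 by the other, and neither passed. Spred2 had ratios of -1.32 and 0.30 by its brightest probe (limma adjusted p = 0.405) and a mean of -1.47 by the dimmer one (limma adjusted p = 0.025), which with normexp and loess was -0.14.

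By their brightest probes, 8 feedback genes were well above background in all 4 channels, and for 7 of them the E14.5 ratio was below the E15.5 ratio, which was so for 51.5% of all tested genes. Etv5 went the other way by 0.10, and the other Spry2 probe, with 0.95 and 0.63, did so too. Spred3 was left out, since both of its RTOC signals were dim. In 2D culture 6 of the 7 tested inhibitors were higher at E14.5, against 48.7% of all genes, with a median difference of 0.35. In RTOC the 6 inhibitors well above background were lower at E14.5 by their brightest probes, against 55.3% of all genes, whereas the other Spry2 probe was higher, at 693 against 275. These genes answer to the same cascade and are not independent of each other, stage rests on 1 array each, and no test of this pattern was made. Gaps as large as that of Spry4 (-2.74) were found in 0.615% of tested genes, as large as that of Spry2 (-2.36) in 1.27%, and as large as that of Dusp6 (-1.57) in 4.53%. Spry3 was below background in both cultures.

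**Figure D4:**
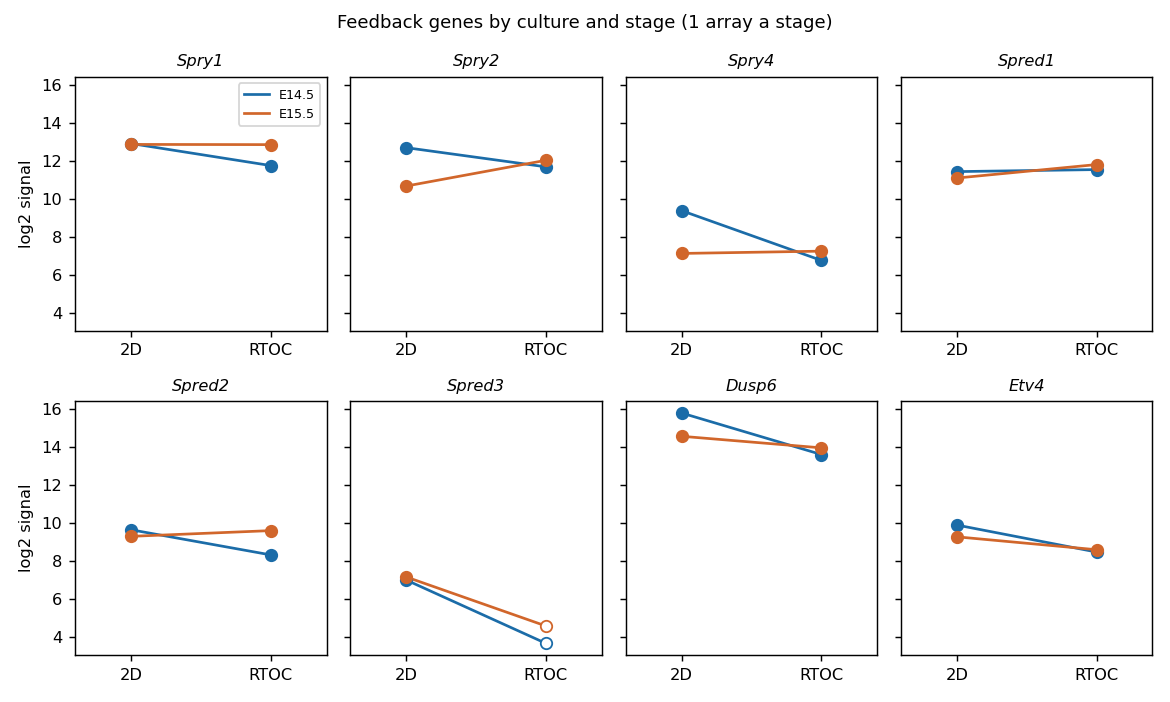
Log2 normalized signal (vertical axis) of 8 feedback genes, each by its brightest tested probe, in 2D culture and RTOC, with 1 line a stage and 1 array behind each line; open points are not well above background. The E14.5 line falls more steeply than the E15.5 line for Spry4, Dusp6, Spry1 and Spred2, and for Spry2 the lines cross.

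Since ERK acts on ETS factors, promoters of the inhibitors were searched for the ETS core CGGAAG on both strands. Promoters are windows of 300 bases around the transcription start, from RefSeq with the build GRCm38.p6, and 32 of the 42 genes had 41 of them. Of 6 inhibitor promoters, 3 held the core, in Dusp6, Spred1 and Spred2, and those of Spred3, Spry1 and Spry2 did not. The core was found in 9 of all 41 promoters (22.0%) and in 16.9% of 32851 mouse promoters. The 3 promoters are printed with the core in capitals, in either orientation.

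Dusp6 promoter, chr10:99262981-99263280, + strand: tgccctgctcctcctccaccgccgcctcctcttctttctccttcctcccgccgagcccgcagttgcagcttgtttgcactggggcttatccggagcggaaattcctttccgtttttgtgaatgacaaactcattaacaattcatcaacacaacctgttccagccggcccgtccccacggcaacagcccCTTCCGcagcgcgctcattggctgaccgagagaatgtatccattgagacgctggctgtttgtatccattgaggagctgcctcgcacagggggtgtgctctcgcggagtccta
Spred1 promoter, chr2:117120821-117121120, + strand: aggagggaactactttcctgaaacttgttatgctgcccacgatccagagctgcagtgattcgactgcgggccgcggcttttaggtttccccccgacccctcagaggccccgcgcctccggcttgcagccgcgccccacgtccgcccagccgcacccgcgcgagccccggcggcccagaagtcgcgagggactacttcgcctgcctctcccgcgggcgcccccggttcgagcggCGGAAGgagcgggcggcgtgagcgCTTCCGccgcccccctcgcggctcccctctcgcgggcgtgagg
Spred2 promoter, chr11:19924192-19924491, + strand: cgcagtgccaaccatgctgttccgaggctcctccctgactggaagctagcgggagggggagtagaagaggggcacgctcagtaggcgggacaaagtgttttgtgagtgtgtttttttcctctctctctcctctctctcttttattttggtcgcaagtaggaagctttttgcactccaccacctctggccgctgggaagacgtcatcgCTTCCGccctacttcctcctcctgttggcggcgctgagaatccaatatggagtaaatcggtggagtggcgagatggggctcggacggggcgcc

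Matches describe these letters and are not evidence of binding. The 2 inhibitors of the 6 with the widest gap between the arrays, Spry2 and Spred2, were 1 without and 1 with the core. The 4 bases ACGC, the core of the Foxn1 motif, which can share an end base with the ETS core, were present in 33 of the 41 promoters (80.5%) and in 55.3% of all promoters, with base composition not matched. Fgfr2, Fgf11 and Fgf14 held none and Fgf10 held 2. The AP-1 letters TGAGTCA were present in 1 of the 41 promoters, that of Fgf12, and in 5.2% of all promoters.

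Partners of the pathway outside the FGF names were read by lists. Of 15 tested other genes that ERK induces, 10 were lower in RTOC, 1 was higher and 13 were lower on both arrays, with a median log2 ratio of -1.27. Among them were Epha2 (-4.03), an ephrin receptor, Ier3 (-3.61), an immediate early gene, and Ccnd1 (-2.80), cyclin D1, while the ETS factor Etv1 was higher (1.63). Heparan sulfate proteoglycans and their enzymes, which hold FGFs at the receptor, were lower for 7 of 21 tested and higher for 1, with a median of -0.59 and 18 lower on both arrays. Of all tested genes, 12.7% were called lower, 15.4% were called higher and 39.5% were lower on both arrays. No list was tested as a set. The sulfotransferase Hs6st2 (-3.48), the chain polymerase Ext1 (-1.98) and the sulfatase Sulf2 (-1.68) fell, and the glypican Gpc1 (1.34) rose.

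Of 19 tested genes of the ERK cascade itself, Nras was lower (-1.64) and the scaffold Ksr1 higher, at least 1.21-fold because it was dim in 2D culture, and the median log2 ratio was -0.15. Of 7 tested further receptor partners and inhibitors, Flrt2, a membrane protein known to bind FGF receptors, was lower (-2.25), none was higher, and the median was -0.61. Of the 62 partner genes tested, 22 passed the limma threshold in either direction (35.5%), against 28.1% of all tested genes.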

How the data were processed

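RNA of fetal thymic stromal cells was measured on 2 two-colour Agilent arrays (Cy3, 2D culture; Cy5, RTOC), both on 1 slide and in 1 scan. The authors made the deposited scanner files with Feature Extraction (version 11.5.1.1 in the submitters' processing notes, 9.1.3.1 in the file header). Per the file headers, each spot has a mean signal, a local background and a processed signal, all given as an intensity, the last background-subtracted and dye-normalized, and a log10 ratio of Cy5 over Cy3. The deposited series values are the same log10 ratio (largest difference 5e-10). Feature Extraction's error-model p-value was not used. The methods name quantile normalization among all arrays and, for the whole study, Student's test. The sources differ on the RNA kit and the scanner.

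Processed signals without control spots and flagged spots (5 at E14.5, 1 at E15.5) were quantile normalized over the 4 channels. Log2 of RTOC over 2D culture was averaged over the spots of a probe. Of 41174 probes, 23685 had at least 1 channel well above background on each array, at no less than 50% of their spots, and were tested against 0 with limma 3.58.1 (R 4.3.3), two-sided, with Benjamini-Hochberg adjustment over all of them and a threshold of 0.05. The fit has 1 residual degree of freedom and 4.5 prior ones, so p-values rest mostly on the spread over all probes. Well above background were 53.1% and 56.3% of probes at E14.5 (2D culture, RTOC) and 53.5% and 60.9% at E15.5. The number of arrays limits the precision. Array is inherent in the ratio as the pairing of the cultures.

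Genes were named through RefSeq accessions or symbols, and the accession led to the same symbol for 73 of the 75 FGF probes. The brightest tested probe stood for a gene. Named with values were all genes past the threshold, Fgf7, Fgf10, Fgfr2 and Fgf14, and of each partner list up to 3 a direction with the largest change, and other tested genes where probes or arrays disagreed, the latter chosen after their values were seen. The members and lists were chosen with earlier results of these data known. Alternatives were other background corrections, scalings, filters, variance models and tests, and single arrays. The limma fit alone was tested on simulated ratios drawn from its own fitted spread. Normalization, background filter and probe choice were not simulated.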

Additional observations from a re-analysis of the deposited data

Results flagged for a closer look

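Spry2 went opposite ways on the 2 arrays by its brightest probe, with RTOC over 2D culture at -1.01 at E14.5 and 1.35 at E15.5 on the log2 scale. With 1 array a stage the difference was not tested, and the second Spry2 probe was higher in RTOC on both arrays.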

How the results depend on the processing

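Among 11 FGF genes followed one by one, no sign turned under any alternative. They were the 10 called genes and Fgf7, chosen from these same arrays, so that this is no independent support. Outside these 11, the sign of Frs2 turned with normexp and loess, from 0.04 to -0.01. The FGF genes higher and lower in RTOC numbered 4 and 6, the partner genes 22 and all probes past the threshold 6820. With normexp and loess, 3 FGF genes were lower, all probes past the threshold numbered 3709 and the median log2 ratio of the FGF genes was -0.17; Etv4, Fgfr1 and Spred3 did not pass. With both channels required well above background, 2 were higher, since Fgf10 and Fgf14 were then not tested. With no filter on dim probes, the counts were 0 for all probes, for FGF genes higher and lower and for partner genes by limma, with 10666 probes at an unadjusted p under 0.05. The methods' t-test also gave 0 in each, with 3539 probes at an unadjusted p under 0.05, and by limma 10228 were so. The causes were not tested. Without the array as a replicate block, all probes past the threshold numbered 4033 and partner genes 14, and Etv4 did not pass. Centring on the median instead of quantile normalization moved the median of all probes from -0.01 to 0.15 and the split of higher and lower probes from 3609 and 3211 to 5073 and 2721, with 5 FGF genes higher and 6 lower. Leaving out an array, the median log2 ratio of the FGF genes was -0.54 without the E15.5 array and -0.21 without the E14.5 array, and counts could not be had, since 1 array has no test. Fgf10 was 1.82 without the E15.5 array and 4.41 without the E14.5 array, and Fgf7 -3.93 and -0.22. Signal over background limits Fgf5, Fgf14 and Spred3 to bounds, and leaves the size of the E15.5 ratio of Fgf10 uncertain.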
